A study of Mus musculus with 12 samples.

Results

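The 9 genes described here make and break glycogen in hepatocytes or target a phosphatase to it: Ugp2, Gys2, Gbe1, Pygl, Phka2, Phkg2, Ppp1r3b, Ppp1r3c and Ppp1r3g. They were chosen by symbol from the 28030 Ensembl gene identifiers of the deposited table, and all 9 were among the 12086 genes that passed the filter on low counts. RNA came from hepatocytes of 12-week-old wild-type female mice kept on lab chow, and the libraries fall into 4 groups of 3. The groups are pericentral hepatocytes (PC), which surround the vein draining each lobule, of fasted mice, PC of fed mice, periportal hepatocytes (PP), which surround the incoming portal vessels, of fasted mice and PP of fed mice. All mice had first gone through 3 days of training, with 16 h without food overnight and 8 h with food by day. On the last day they were given food together with drinking water containing 20% sucrose. Fed mice were taken 4 h into that meal, and fasted mice after a further 24 h without food or sucrose. The zones were separated with digitonin, a detergent that lyses cells on one side of the lobule so that those of the other side can be collected. Libraries are named by group and number, as in fed PC 1. The numbers stand for biological replicates in the labels, which leave unsaid if the 2 zones of a number are from 1 mouse.

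Glycogen is the glucose store of the liver, built after a meal and released as blood glucose during a fast. Glucose 1-phosphate is activated to UDP-glucose, which glycogen synthase adds to the chains while the branching enzyme makes branch points; glycogen phosphorylase removes glucose again. Phosphorylase is switched on by phosphorylase kinase, and protein phosphatase 1, brought to the particle by glycogen-targeting subunits, switches phosphorylase off and synthase on. These enzymes are regulated largely by phosphorylation and by small molecules, which mRNA counts do not show.

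Estimated counts summed to between 16245846 and 27449412 per library, and levels are given as CPM, counts scaled to a common library size after normalization by the trimmed mean of M values (TMM). The hepatocyte marker Alb, albumin, stood at 64730 to 137200 CPM. Summed markers of endothelial cells (6 genes) reached at most 22.17 CPM, of macrophages (6) 8.266, of cholangiocytes (5) 47.3, of stellate cells (6) 14.38 and of leukocytes (5) 6.197 CPM in any library. The 4 haemoglobin genes summed to 426.9 CPM in fasted PC 2, 140.0 CPM in fasted PP 3 and at most 36.38 CPM elsewhere. Fasted PC 1 stood apart from its group in many zone markers: Glul, a pericentral glutamine synthetase, had 171.9 CPM there, against 3637 CPM in fasted PC 2 and 2351 CPM in fasted PC 3, and the periportal gene Hal was at 578.6 CPM, against 69.84 and 108.6 CPM. Of 8 pericentral markers, all but Lgr5 were lowest there within fasted PC, Cyp2e1 at 11790 CPM against 15390 and 14710 CPM. Of 8 periportal markers, all but Cdh1 and Pck1 were highest there. Cdh1 (5.457 CPM, against 5.955 and 6.758) and Pck1 (4380 CPM, against 4670 and 4514) were lowest there. Results on the 9 genes are therefore also given without that library where the call differs. A gene was called where the edgeR quasi-likelihood test gave a Benjamini-Hochberg adjusted p under 0.05 over all 12086 genes, and fold changes are log2 values ± standard error (SE).

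Of the genes called for fasting on average over the zones, Ppp1r3b had no promoter entry, and Phka2 and Phkg2 are not shown. Promoters are shown for the other 3: Ppp1r3c and Pygl, which were lower in fasted mice, and Ppp1r3g, which was higher. Each is 250 bases before to 50 bases after the RefSeq gene start (GRCm38.p6), written 5′ to 3′ on the gene's strand: chr19:36736555-36736854 (minus) for Ppp1r3c, chr12:70227634-70227933 (minus) for Pygl and chr13:35967656-35967955 (plus) for Ppp1r3g. Capitals mark the E-box letters CACGTG, searched on both strands with TGACGTCA, the cyclic AMP response element, and TGTTTAC, a forkhead motif.
Ppp1r3c: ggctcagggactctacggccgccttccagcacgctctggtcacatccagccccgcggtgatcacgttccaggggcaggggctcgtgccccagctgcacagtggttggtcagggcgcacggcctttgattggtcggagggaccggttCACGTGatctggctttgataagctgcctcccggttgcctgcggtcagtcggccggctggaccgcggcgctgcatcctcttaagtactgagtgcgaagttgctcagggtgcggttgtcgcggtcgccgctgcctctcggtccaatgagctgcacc
Pygl: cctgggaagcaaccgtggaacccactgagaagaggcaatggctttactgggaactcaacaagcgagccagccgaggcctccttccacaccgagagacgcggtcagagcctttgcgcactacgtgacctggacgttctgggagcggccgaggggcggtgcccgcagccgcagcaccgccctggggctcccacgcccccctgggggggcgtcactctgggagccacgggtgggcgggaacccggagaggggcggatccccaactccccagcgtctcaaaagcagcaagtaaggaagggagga
Ppp1r3g: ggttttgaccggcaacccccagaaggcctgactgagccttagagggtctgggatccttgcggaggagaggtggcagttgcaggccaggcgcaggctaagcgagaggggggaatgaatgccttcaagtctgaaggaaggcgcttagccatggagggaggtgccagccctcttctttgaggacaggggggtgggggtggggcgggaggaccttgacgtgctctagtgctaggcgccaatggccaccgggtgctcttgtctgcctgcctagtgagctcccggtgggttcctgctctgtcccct
Among the 7 genes with a promoter entry, Ugp2, Gbe1, Pygl, Phka2, Phkg2, Ppp1r3c and Ppp1r3g, Ppp1r3c held the E-box, beginning at position -104 relative to the gene start. It held neither of the other motifs, and the other 6 genes held no match to any of the motifs. Of 32851 mouse promoters of this length, 7.15% held the E-box, 1.79% the cyclic AMP response element and 3.65% the forkhead motif. A match is a description of the letters and no match says only that these letters are not in this window. The GENCODE spans of Ppp1r3g and Pygl begin upstream of their windows, at chr13:35958839 and chr12:70231488. Sequence around those starts was not searched.

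By the mean over the 12 libraries, the order of mRNA abundance put the enzymes above the regulators. Per kb of merged exon, Ugp2, UDP-glucose pyrophosphorylase, had the highest mean over the 12 libraries at 144 CPM per kb. It was followed by Gys2, liver glycogen synthase, at 93.8, Pygl, liver glycogen phosphorylase, at 83.8, and Gbe1, the branching enzyme, at 32.2 CPM per kb. The phosphatase targeting subunits Ppp1r3c and Ppp1r3b came next at 21.8 and 13.8 CPM per kb. The phosphorylase kinase subunits Phkg2 and Phka2 stood at 4.04 and 3.81 and Ppp1r3g at 3.47 CPM per kb.

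Some neighbours in this order overlapped, and the order was not kept in every group. In fed PC, Ppp1r3c averaged 38.7 CPM per kb (22.7 to 52.1) and Gbe1 36.5 (29.6 to 41.5). In fasted PP, Ppp1r3g averaged 8.09 CPM per kb (0 to 14.6), against 4.51 for Phkg2 and 3.76 for Phka2. Pygl lay below Gys2 in every library of fasted PC (38.4 to 55.1 against 65.5 to 82.1 CPM per kb), and the 2 genes overlapped in fed PC (85.5 to 116 against 68.5 to 92.1 CPM per kb). Phkg2 and Phka2 overlapped in fasted PC (4.3 to 4.81 and 4.33 to 5.57 CPM per kb). Ppp1r3c exceeded Ppp1r3b in every fed PC library (22.7 to 52.1 against 19.0 to 21.5 CPM per kb), while in fasted PC they overlapped at 7.16 to 12.9 and 6.12 to 10.6 CPM per kb. These ranges are per kb of merged exon, and both they and the top of the order depend on the length used. Per kb of the longest transcript, Pygl came first at 183, before Ugp2 at 164 and Gys2 at 93.8 CPM per kb. On that length Pygl lay above Gys2 in every fasted PC library (84.1 to 121 against 65.5 to 82.1). The same held in every fed PC library (187 to 255 against 68.5 to 92.1 CPM per kb). Phkg2 then lay above Phka2 in fasted PC without overlap. Ppp1r3c and Ppp1r3b then overlapped in fed PC (22.7 to 52.1 and 26.9 to 30.5 CPM per kb).

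**Figure D1:**
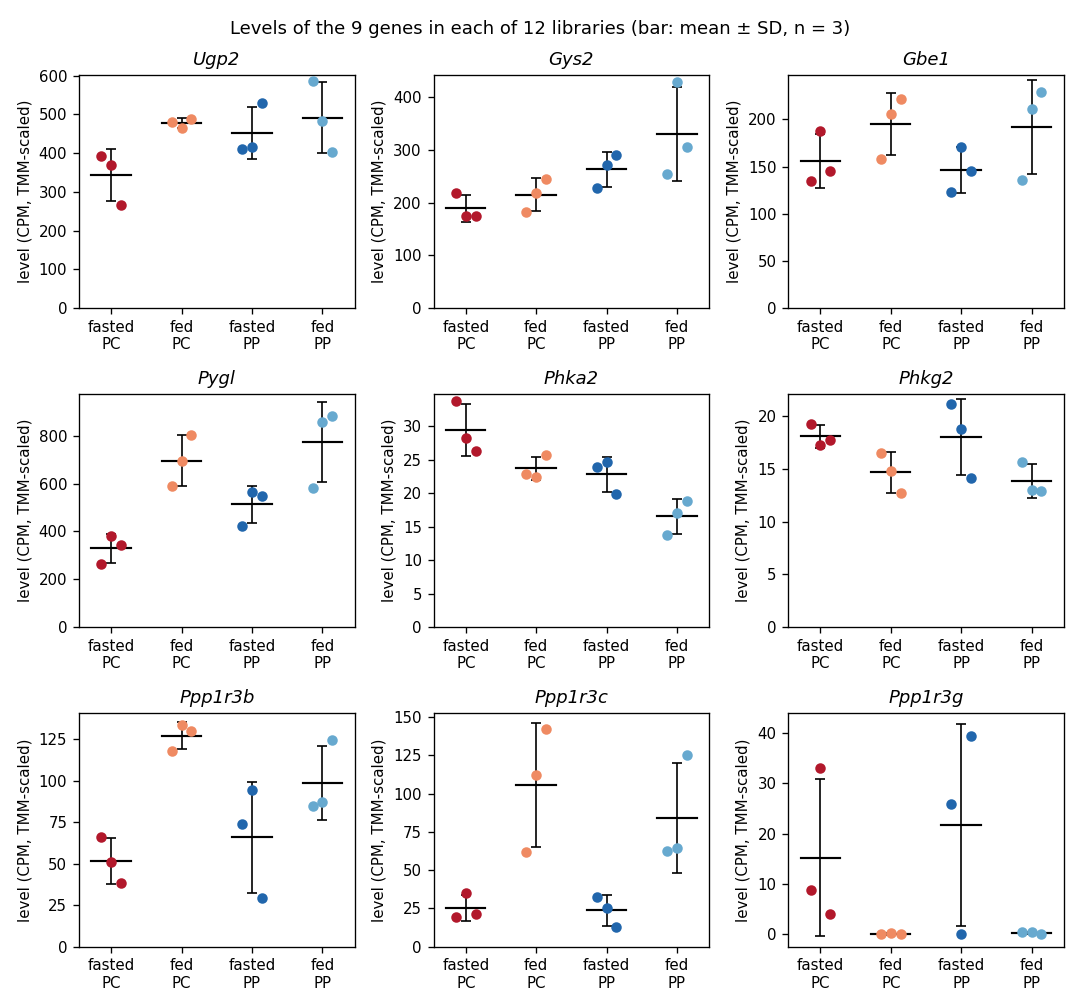
Level of each of the 9 genes (y axis, TMM-scaled CPM, each panel with its own scale) in the 3 libraries of fasted PC, fed PC, fasted PP and fed PP, with a bar at the mean and whiskers of 1 SD. Ppp1r3c sits at 12.9 to 35.19 CPM in all 6 fasted libraries and at 61.82 to 141.9 CPM in all 6 fed ones, and Ppp1r3g is near 0 in every fed library.

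For fasting, the breakdown enzyme, the phosphorylase kinase subunits and the phosphatase targeting subunits were called on average over the zones, and none of the synthesis enzymes was. Called and uncalled genes were not tested against each other. Ugp2 (-0.30, edgeR adjusted p = 0.0698) and Gbe1 (-0.36, 0.0782) differed by about as much as the called Phkg2 (0.34, 0.0323). Averaged over both zones, 6 of the 9 genes were called: Pygl, Ppp1r3b and Ppp1r3c were lower in fasted mice, and Phka2, Phkg2 and Ppp1r3g were higher. Of all 12086 genes, 35.3% were called in this comparison, 17.8% higher and 17.5% lower. The median log2 fold change of the 9 genes was -0.30, and that of all genes tested was 0. In bulk RNA, fewer cells of a type and less RNA per cell cannot be told apart. With library totals alone in place of TMM, the calls over all genes became 1588 higher and 2648 lower, against 2153 and 2111; Phkg2 was then not called (0.26, edgeR adjusted p = 0.0779), and Ugp2 (-0.38, adjusted p = 0.0334) and Gbe1 (-0.43, adjusted p = 0.0455) were.

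Ugp2, which makes UDP-glucose, had 392.3, 369.7 and 267.2 CPM in fasted PC, against 479.5, 464.2 and 488.4 CPM in fed PC. All fasted PC libraries lay below all fed ones, and the difference of -0.48 ± 0.17 was not called (edgeR adjusted p = 0.0648). In PP the groups overlapped at 409.6 to 529.2 CPM fasted and 404.0 to 586.4 CPM fed (-0.12 ± 0.17, edgeR adjusted p = 0.678). The fasting difference of Ugp2 in PC was called without fasted PC 1 (-0.60, adjusted p = 0.0429 in edgeR), and also without fed PP 1 (0.0406), fed PP 3 (0.0467) or fasted PP 3 (0.0474), which enter the shared spread. Averaged over the zones, Ugp2 stood at -0.30 ± 0.12 (edgeR adjusted p = 0.0698), and was called without fed PP 3 (0.0355), fasted PC 1 (0.0444) or fasted PP 3 (0.036).

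Gys2 (chr6:142422613-142473109, GRCm38, minus strand), the synthase that lengthens the chains, had 218.2, 175.2 and 174.2 CPM in fasted PC and 182.1, 218.0 and 244.6 CPM in fed PC. In PP it had 227.3, 270.7 and 290.3 CPM fasted, against 255.1, 429.0 and 305.9 CPM fed. Fasted and fed libraries overlapped in both zones. The log2 fold change was -0.18 ± 0.19 in PC and -0.33 ± 0.19 in PP, neither called (edgeR adjusted p = 0.519 and 0.251). Gbe1 overlapped in both zones as well, averaging 156.0 ± 28.2 CPM in fasted PC against 195.3 ± 33.1 in fed PC, and 146.4 ± 24.0 in fasted PP against 191.6 ± 49.6 in fed PP (SD, n = 3 each). Averaged over the zones its log2 fold change was -0.36 ± 0.15 (edgeR adjusted p = 0.0782). That of Gbe1 was called without fed PP 1 (0.0148) or fasted PC 2 (0.0468).

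Pygl (chr12:70190811-70231488, GRCm38, minus strand), which releases glucose 1-phosphate from glycogen, was lower in fasted mice. It had 264.9, 380.2 and 342.1 CPM in fasted PC, against 589.2, 692.7 and 802.4 CPM in fed PC. Every fasted PC library lay below every fed PC library, a log2 difference of -1.08 ± 0.19 (edgeR adjusted p = 0.00227). In PP it had 423.7, 565.7 and 549.5 CPM fasted, against 581.7, 858.3 and 880.5 CPM fed. These groups did not overlap either, and the difference of -0.59 ± 0.19 was just short of a call (edgeR adjusted p = 0.0506). It was called without fed PP 1 (-0.75, adjusted p = 0.0178) or fasted PC 1 (-0.59, adjusted p = 0.0428). Averaged over the zones Pygl was lower, at -0.84 ± 0.14 (edgeR adjusted p = 0.000522), and this call held whichever of the 12 libraries was left out (-0.92 to -0.77).

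Phka2 and Phkg2, the liver regulatory alpha subunit and the liver catalytic gamma subunit of phosphorylase kinase, were higher in fasted mice by small amounts. Phka2 had 33.77, 28.27 and 26.26 CPM in fasted PC, against 22.87, 22.46 and 25.7 CPM in fed PC. In PP it had 23.86, 24.68 and 19.82 CPM fasted, against 13.76, 17.03 and 18.76 CPM fed. Fasted libraries lay above fed ones in both zones. The averaged log2 fold change of Phka2 was 0.39 ± 0.10 (edgeR adjusted p = 0.00945), called whichever library was left out (0.33 to 0.43). In PP alone it was 0.47 ± 0.14 (edgeR adjusted p = 0.0403) and in PC alone 0.32 ± 0.14 (0.136). The PP call of Phka2 ended without fed PC 1 (0.0566), 2 (0.0574) or 3 (0.0516), fed PP 1 (0.124) or 2 (0.0795), fasted PC 2 (0.0521), or fasted PP 1 (0.0963) or 2 (0.119).

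Phkg2 averaged 18.06 ± 1.06 CPM in fasted PC against 14.66 ± 1.90 in fed PC, and 18.02 ± 3.58 CPM in fasted PP against 13.85 ± 1.58 in fed PP (SD, n = 3 each). The PC groups did not overlap and the PP groups did. The averaged log2 fold change of Phkg2 was 0.34 ± 0.11 (edgeR adjusted p = 0.0323). This call ended without fed PC 2 (0.0618) or 3 (0.0823), fed PP 2 (0.0774) or 3 (0.0721), fasted PC 1 (0.0622), or fasted PP 1 (0.0838) or 2 (0.0696). Phkg2 shares 876 exon bases with Ccdc189 on the opposite strand and Phka2 shares 115 with Gm15243, as Ugp2 shares 78 with Gm12043, and since the library kit does not mark strand, reads from those bases cannot be told apart.

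Averaged over the zones, the 3 phosphatase targeting subunits had the largest fasting differences among the 9 genes. That of Ppp1r3b (-0.94) was close to that of Pygl (-0.84), and in PP they stood at -0.58 and -0.59. The sizes were not tested against each other. Ppp1r3c (chr19:36731731-36736653, GRCm38, minus strand), also called PTG, binds glycogen and protein phosphatase 1 together and is known to favour glycogen synthesis. It had 19.51, 35.19 and 20.99 CPM in fasted PC, against 61.82, 112.3 and 141.9 CPM in fed PC. In PP it had 32.64, 25.12 and 12.9 CPM fasted, against 62.42, 64.11 and 125.4 CPM fed. No fasted library reached the level of any fed library in either zone. Ppp1r3c was lower in fasted mice, at -2.06 ± 0.45 in PC (edgeR adjusted p = 0.00935) and -1.83 ± 0.44 in PP (edgeR adjusted p = 0.0185). The PP call of Ppp1r3c ended without fed PP 3 (0.0608) or fasted PP 2 (0.0532). The average over the zones, -1.95 ± 0.31 (edgeR adjusted p = 0.001), was called whichever library was left out (-2.10 to -1.76).

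Ppp1r3b (chr8:35375739-35388139, GRCm38, plus strand), the targeting subunit also called GL that is best known from liver, had 65.84, 51.25 and 38.06 CPM in fasted PC, against 118.1, 133.8 and 130.0 CPM in fed PC. In PP it had 73.89, 94.67 and 29.34 CPM fasted, against 84.66, 87.14 and 124.5 CPM fed. The PC groups were clear of each other, while fasted PP 2 lay within the fed PP range. Ppp1r3b was lower in fasted PC by -1.30 ± 0.36 (edgeR adjusted p = 0.0271) and not called in PP (-0.58 ± 0.36, edgeR adjusted p = 0.297). The PC call of Ppp1r3b ended without fed PC 1 (0.0522), 2 (0.07) or 3 (0.075) or fasted PC 2 (0.0802) or 3 (0.0828). The averaged difference, -0.94 ± 0.25 (edgeR adjusted p = 0.015), was called whichever library was left out (-1.13 to -0.77).

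Ppp1r3g (chr13:35958839-35970388, GRCm38, plus strand), another glycogen-binding targeting subunit, had 0 to 10 counts in fed libraries and at least 72 in 5 of the 6 fasted ones. It had 171, 549 and 72 counts in fasted PC, against 0, 7 and 0 in fed PC, which is 8.803, 33.03 and 3.988 CPM against 0, 0.2434 and 0 CPM. In PP it had 517, 0 and 866 counts fasted, against 10, 10 and 0 fed, or 25.92, 0 and 39.46 CPM against 0.4261, 0.469 and 0 CPM. The fasted libraries differed widely among themselves, and fasted PP 2 was listed at 0, which at a floor of 3 counts allows up to 0.125 CPM of its total. In that library 2 genes, Ppp1r3g among them, were at 0 while both other fasted PP libraries had at least 100 counts. The fitted log2 fold changes of Ppp1r3g, 7.41 ± 2.09 in PC and 6.14 ± 1.80 in PP (edgeR adjusted p = 0.0332 and 0.0429), rest on fed counts of 0 to 10 and depend on the fit's handling of zeros.

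Averaged over the zones, Ppp1r3g was higher by a fitted 6.77 ± 1.38 (edgeR adjusted p = 0.00439), and this was called without any 1 of the 11 libraries whose removal left a value. Without fed PC 2 the fed PC libraries are all at 0 and no fold change is given. The PC call of Ppp1r3g ended without fed PC 1 (0.106) or 3 (0.115), fed PP 1 (0.0509) or 2 (0.0519) or fasted PC 2 (0.0917). The PP call ended without fed PC 1 (0.0641), 2 (0.0847) or 3 (0.0654), fed PP 1 (0.113), 2 (0.118) or 3 (0.115), or fasted PP 1 (0.0891) or 3 (0.096), and stood at 6.73 (adjusted p = 0.0062) without fasted PP 2. The 2 libraries with the most Ppp1r3g, fasted PC 2 and fasted PP 3, are also those with the highest haemoglobin sums, 426.9 and 140.0 CPM. The other fasted libraries did not follow that order. Fasted PP 1 had 25.92 CPM of Ppp1r3g with a haemoglobin sum of 1.253 CPM, and fasted PC 1 had 8.803 with 1.184 CPM. Fasted PC 3 had 3.988 with 3.379 CPM, and fasted PP 2 had 0 with 9.836 CPM. The part of blood in these levels was not tested.

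**Figure D2:**
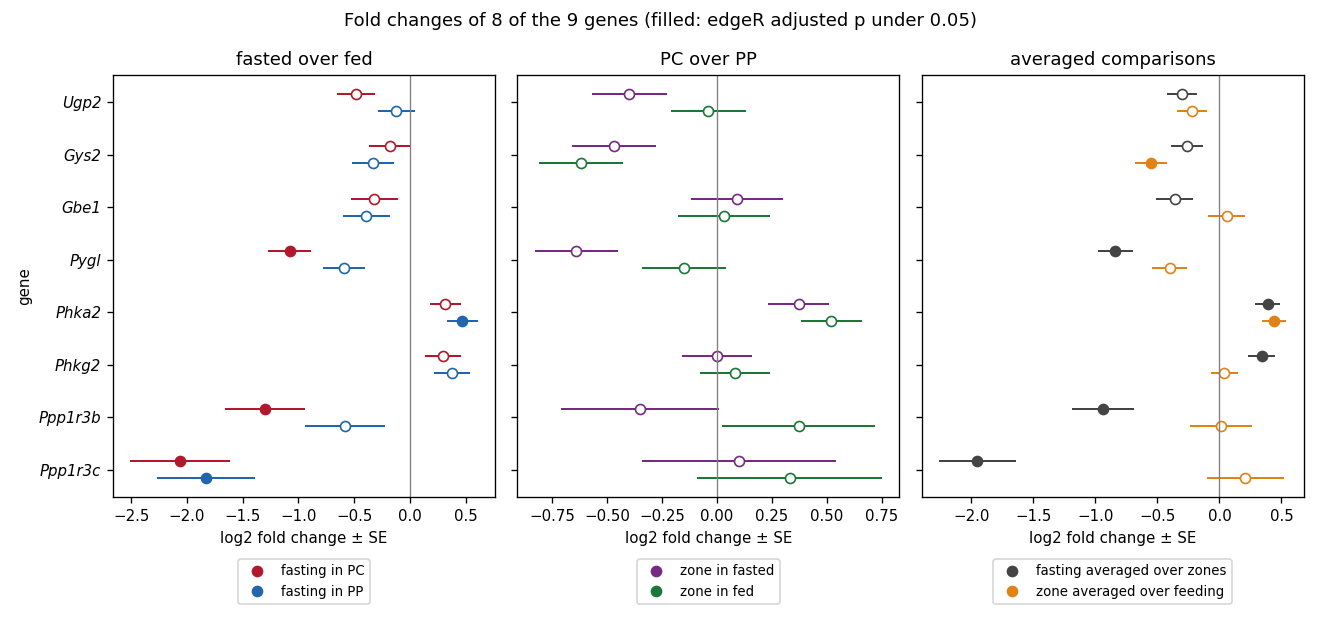
Log2 fold changes with SE (x axis) of 8 genes (rows) for fasted over fed in each zone (left), PC over PP in each feeding state (middle) and the 2 averaged comparisons (right), filled where the edgeR adjusted p is under 0.05; Ppp1r3g is not drawn because its fed libraries are at or near 0. Ppp1r3c has the lowest values for fasting, -2.06 in PC and -1.83 in PP, and the 3 synthesis genes have open symbols for fasting throughout.

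Taken by zone, 4 of the 9 genes were called for fasting in PC, where 21.4% of all genes were called, 11.1% higher and 10.2% lower. Ppp1r3g was higher, and Pygl, Ppp1r3b and Ppp1r3c were lower. All fasted PC libraries lay above all fed PC libraries for 3 of the 9 (21.5% of all genes) and below them for 4 (20.2%). In PP, where 17.9% of all genes were called, 8.39% higher and 9.5% lower, 3 were called, with Phka2 and Ppp1r3g higher and Ppp1r3c lower, and fasted libraries lay wholly above for 1 (16.8% of all genes) and wholly below for 2 (17.8%). DESeq2 called 5 of the 9 in PC and 4 in PP. No gene's fasting difference was shown to depend on the zone: 0 of the 9 were called for the interaction in edgeR, 0 had an unadjusted p under 0.05 and DESeq2 called 0. Over all 12086 genes edgeR also called 0, and DESeq2, run on all 28030 identifiers, called 11. The interaction was -0.49 ± 0.27 for Pygl and -0.72 ± 0.50 for Ppp1r3b, both with an edgeR adjusted p of 0.997. The comparisons between zones use the same libraries as these fasting comparisons.

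Between the zones, the synthase was lower and a kinase subunit higher in PC. Averaged over feeding states, Gys2 was lower in PC by -0.55 ± 0.13 (edgeR adjusted p = 0.0148) and Phka2 was higher in PC by 0.44 ± 0.10 (edgeR adjusted p = 0.0107). These were 2 of the 9 genes, in a comparison that called 13% of all genes, 6.47% higher and 6.5% lower in PC. Both calls held whichever library was left out, at -0.62 to -0.43 for Gys2 and 0.39 to 0.50 for Phka2. Without fasted PC 1 they stood at -0.60 (edgeR adjusted p = 0.0134) and 0.39 (0.0198). Under library totals alone the zone calls over all genes became 1261 higher and 619 lower in PC, against 782 and 785 with TMM.

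Gys2 averaged 189.2 ± 25.1 CPM in fasted PC against 262.8 ± 32.2 CPM in fasted PP, and 214.9 ± 31.4 CPM in fed PC against 330.0 ± 89.4 in fed PP (SD, n = 3 each). The zones did not overlap in either feeding state, although fed PP 2, at 429.0 CPM, stood well above the other fed PP libraries. Phka2 averaged 29.43 ± 3.89 CPM in fasted PC against 22.79 ± 2.60 CPM in fasted PP, and 23.68 ± 1.76 CPM in fed PC against 16.52 ± 2.54 in fed PP, again with no overlap. Within a feeding state neither gene was called. In fasted mice 0 of the 9 genes were called by edgeR (6.4% of all genes were, 3.35% higher and 3.05% lower in PC), 4 had an unadjusted p under 0.05 (Ugp2, Gys2, Pygl and Phka2) and DESeq2 called 1, Pygl. PC libraries lay wholly above PP libraries for 1 of the 9 (11.3% of all genes) and wholly below for 3 (10.6%). In fed mice 0 of the 9 were called by edgeR (4.72% of all genes were, 2.24% higher and 2.47% lower in PC), 2 had an unadjusted p under 0.05 (Gys2 and Phka2) and DESeq2 called those 2. The zones were clear of each other for 1 gene above (12.9% of all genes) and 1 below (13.1%).

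Pygl was the gene nearest to a zone call in fasted mice, at 329.1 ± 58.7 CPM in PC against 513.0 ± 77.7 CPM in PP (SD, n = 3 each; -0.64 ± 0.19, edgeR adjusted p = 0.0735). It was called without fed PP 1 (0.0382), and the DESeq2 adjusted p was 0.0203. In fed mice the zones overlapped, at 694.8 ± 107.0 CPM in PC and 773.5 ± 166.0 CPM in PP (-0.15 ± 0.19, edgeR adjusted p = 0.78). Averaged over feeding states, Pygl stood at -0.40 ± 0.14 (edgeR adjusted p = 0.0772) and was called without fed PP 1 (0.0252).

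In fed mice, Gys2 was at -0.62 ± 0.19 in PC over PP (edgeR adjusted p = 0.0855), called without fed PP 1 (0.0387). Phka2 was at 0.52 ± 0.14 (edgeR adjusted p = 0.0603), called without fed PP 3 (0.0494), fasted PC 1 (0.0367) or fasted PP 3 (0.0431). None of the targeting subunits had a zone difference beyond its SE in the averaged comparison: Ppp1r3b stood at 0.01 ± 0.25, Ppp1r3c at 0.21 ± 0.31 and Ppp1r3g at -1.15 ± 1.72. Gbe1 and Phkg2 stood at 0.06 ± 0.15 and 0.04 ± 0.11, and Ugp2 at -0.22 ± 0.12 (edgeR adjusted p = 0.286).

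The ratio of breakdown to synthesis mRNA was compared within each library, where it does not depend on the scaling of the library. The log2 ratio of Pygl to Gys2 counts was 0.28, 1.12 and 0.97 in fasted PC, against 1.69, 1.67 and 1.71 in fed PC. In PP it was 0.90, 1.06 and 0.92 fasted, against 1.19, 1.00 and 1.52 fed. The fasted PC libraries all lay below the tightly grouped fed PC libraries, and the PP groups overlapped.

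The mean log2 ratio differed by -0.90 between fasted and fed PC, at 0.79 ± 0.45 against 1.69 ± 0.02 (SD, n = 3 each; two-sided exact permutation test p = 0.1, the smallest that 3 against 3 allows). Fasted PC 1, at 0.28 against 1.12 and 0.97 in the other fasted PC libraries, widened this difference and the SD. In PP the difference was -0.28 (exact permutation p = 0.2). Between zones it was 0.45 in fed mice (exact permutation p = 0.1), and -0.17 in fasted mice (exact permutation p = 0.9), where the difference was 0.09 without fasted PC 1. None of these 4 tests could reach an adjusted p under 0.05.

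Within the synthase, phosphorylase and phosphorylase kinase gamma subunit families, the liver form made up nearly all of the mRNA. Per kb of exon, Gys2 was 99.1% to 99.8% of Gys1 and Gys2 together over the 12 libraries. Pygl was 98.5% to 99.5% of the 3 phosphorylase genes, and Phkg2 was 98.2% to 99.9% of both gamma subunit genes. The alpha subunit was less uniform. Phka2 was 84.6% to 86.9% of Phka2 and Phka1 in fasted PC against 76.2% to 80.3% in fed PC, and 77.1% to 82.5% in fasted PP against 65.3% to 67.2% in fed PP. The share of Phka2 was thus above that of fed mice in every fasted library of its own zone, and Phka1, the muscle alpha subunit, was lower in fasted mice in the averaged comparison (-0.46 ± 0.11, edgeR adjusted p = 0.00552).

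The targeting subunits were also compared by their shares within each library. These shares use the length of merged exon alone. Per kb of the longest transcript, the levels of Ppp1r3b and Ppp1r3c overlapped in fed PC, and shares on that length were not worked out. Ppp1r3c was 32.3% to 46.7% of the 7 targeting subunit mRNAs per kb in fasted PC against 52.9% to 70.4% in fed PC, and 18.5% to 36.6% in fasted PP against 59.7% to 67.9% in fed PP. Ppp1r3g was 14.7%, 34.9% and 8.96% in fasted PC against at most 0.141% in fed PC, and 27.7%, 0% and 57.4% in fasted PP against at most 0.448% in fed PP. In fasted PP 3 Ppp1r3g was the most abundant of the 7 per kb. Ppp1r3b held 23.5% to 47.8% in fasted PC against 28.3% to 44.3% in fed PC, so its share overlapped while its level was lower.

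**Figure D3:**
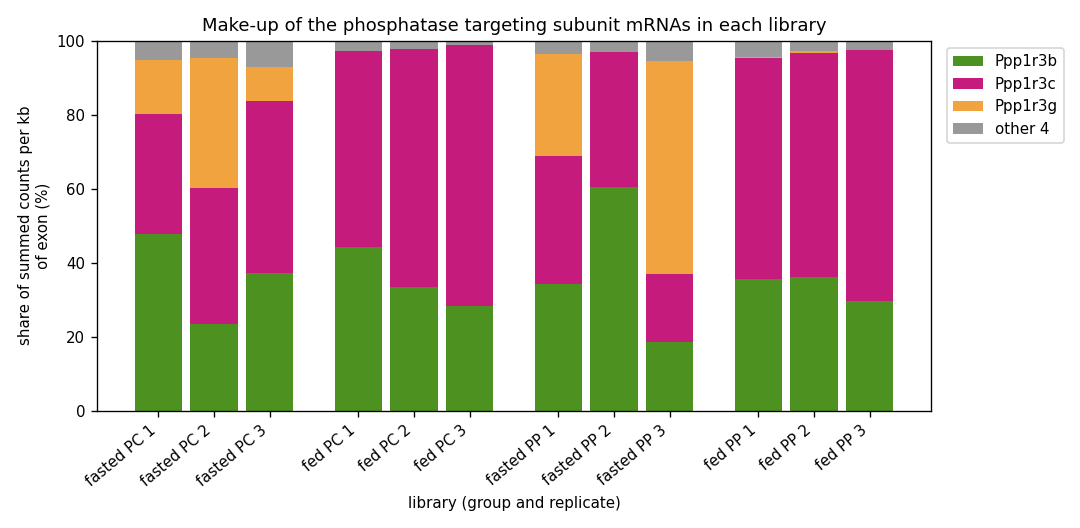
Share (y axis, % of summed counts per kb of exon) of Ppp1r3b, Ppp1r3c, Ppp1r3g and the other 4 targeting subunit genes in each of the 12 libraries (x axis), fasted before fed within PC and then PP. Ppp1r3g takes 8.96% to 34.9% in fasted PC and 57.4% in fasted PP 3, and no more than 0.448% in any fed library.

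The other genes of glycogen metabolism moved in both directions with fasting. Of 22 such genes, 18 were tested, and averaged over the zones 6 were higher and 6 lower in fasted mice, beside 35.3% called of all genes. Their median log2 fold change was 0, as was that of all genes tested. By zone, 5 were higher and 2 lower with fasting in PC, beside 21.4% called of all genes, and 3 were higher and 4 lower in PP, beside 17.9%. Of these 7 calls in PC, those of Ppp1cc, Gsk3a and Gaa held whichever library was left out, and those of Gyg, Pgm1, Pygb and Nhlrc1 did not. Of the 7 in PP, those of Pygb, Stbd1 and Epm2a held, and those of Gyg, Ppp1cc, Phka1 and Phkb did not. Among the higher ones were Gyg, glycogenin, which primes new particles (0.55 ± 0.12, edgeR adjusted p = 0.00436), Ppp1cc, a catalytic subunit of protein phosphatase 1 (0.49 ± 0.08, 0.000331), and Gsk3a, a kinase that inhibits the synthase (0.41 ± 0.07, 0.000879). Gaa, the lysosomal alpha-glucosidase that digests glycogen, was at 0.57 ± 0.10 (edgeR adjusted p = 0.000724) and Epm2a, the glycogen phosphatase laforin, at 0.67 ± 0.13 (0.00186). Pgm1, phosphoglucomutase, was higher by 0.24 ± 0.06 (edgeR adjusted p = 0.00855) and not called under library totals alone (0.16, 0.0649).

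Among the lower ones, Phkb, the shared beta subunit of phosphorylase kinase, stood at -0.46 ± 0.11 (edgeR adjusted p = 0.00541), where Phka2 and Phkg2 were higher. Pygb, the brain phosphorylase, was lower by -1.14 ± 0.20 (edgeR adjusted p = 0.000928) at 1.615 ± 0.126 CPM in fasted PC against 3.131 ± 0.523 in fed PC. Nhlrc1, the ubiquitin ligase malin, was lower by -1.44 ± 0.29 (edgeR adjusted p = 0.00232) with levels under 3 CPM in every library. Gys1, the muscle synthase, was at -0.79 ± 0.26 (edgeR adjusted p = 0.0328). Its call ended without fed PC 1 (0.0715) or 3 (0.0614), fed PP 2 (0.0964), fasted PC 2 (0.0755) or 3 (0.0576), or fasted PP 1 (0.052) or 3 (0.0607).

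Stbd1, a glycogen-binding anchor protein, had 98.68 ± 22.6 CPM in fasted PC against 38.84 ± 4.23 CPM in fasted PP, and 89.43 ± 11.9 CPM in fed PC against 67.64 ± 8.26 in fed PP (SD, n = 3 each). It was higher in PC averaged over feeding states (0.87 ± 0.12, edgeR adjusted p = 0.000345) and within fasted mice (1.34 ± 0.17, 0.000757), and lower with fasting in PP (-0.80 ± 0.17, edgeR adjusted p = 0.00644). Its averaged fasting call (-0.33 ± 0.12, 0.0457) ended without fed PC 1 (0.112) or 3 (0.0643), fed PP 1 (0.0836) or 2 (0.0824), fasted PC 1 (0.0682) or 3 (0.0549), or fasted PP 1 (0.0798) or 2 (0.089). Of the 18 tested glycogen genes, 2 were higher and 2 lower in PC in the averaged zone comparison, beside 13% called of all genes. Pgm2 (-0.69 ± 0.15, edgeR adjusted p = 0.00697) and Pygb (-0.89 ± 0.20, 0.0112) were lower in PC. Pgm1 was higher (0.22 ± 0.06, edgeR adjusted p = 0.0292), which was lost without fed PC 1 (0.0792) or 3 (0.072), fed PP 2 (0.0667), fasted PC 2 (0.0665) or 3 (0.052), or fasted PP 3 (0.0572).

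Of 7 tested genes that bring glucose into the cell or release it, 1 was called in the averaged fasting comparison, beside 35.3% of all genes. G6pc, the glucose 6-phosphatase that frees glucose, had 552.3 ± 154.0 CPM in fasted PC against 239.5 ± 25.5 in fed PC, and 1116 ± 261 CPM in fasted PP against 580.5 ± 189.0 in fed PP (SD, n = 3 each; averaged 1.07 ± 0.18, edgeR adjusted p = 0.000702). G6pc was also lower in PC than PP (-1.15 ± 0.18, edgeR adjusted p = 0.00118), in a zone comparison that called 0 of the 7 higher and 3 lower in PC, beside 13% of all genes. The glucose transporter Slc2a2 (-0.33 ± 0.10, edgeR adjusted p = 0.0377) and the glucose 6-phosphate transporter Slc37a4 (-0.38 ± 0.11, 0.0374) were the others. The zone call of Slc2a2 held without fed PC 3, fed PP 1, fasted PC 1 or fasted PP 1, and was lost without each of the other 8 (0.0612 to 0.101). That of Slc37a4 held without fed PP 1 or fasted PP 3 and was lost without each of the other 10 (0.0523 to 0.096). In PC, Slc37a4 was also lower in fasted mice (-0.51 ± 0.16, edgeR adjusted p = 0.0336), and not called without fed PC 2 (0.0854), fed PC 3 (0.125), or fasted PC 1 (0.0619), 2 (0.0919) or 3 (0.0686).

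Of 4 genes that make or use UDP-glucose or its precursors, 1 was called for fasting on average, beside 35.3% of all genes. Galk1, galactokinase, was higher by 0.29 ± 0.10 (edgeR adjusted p = 0.032). This call ended without fed PC 1 (0.0746), 2 (0.0538) or 3 (0.0506), fed PP 1 (0.0515) or 3 (0.0735), fasted PC 2 (0.0788) or fasted PP 1 (0.0585), and under library totals alone (0.0874).

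Of 13 genes that carry hormone signals to glycogen, 3 were higher and 3 lower in fasted mice in the averaged comparison, beside 35.3% called of all genes, 17.8% higher and 17.5% lower. Their median log2 fold change was -0.13. Irs2, an adaptor of the insulin receptor, had 50.03 ± 19.1 CPM in fasted PC against 4.581 ± 1.83 in fed PC, and 44.68 ± 14.8 CPM in fasted PP against 6.257 ± 2.04 in fed PP (SD, n = 3 each; averaged 3.13 ± 0.28, edgeR adjusted p = 1.87e-05). Insr, the insulin receptor, was higher by 0.63 ± 0.07 (edgeR adjusted p = 5.16e-05), and Gcgr, the glucagon receptor, by 0.34 ± 0.10 (0.018). Calmodulin is the delta subunit of phosphorylase kinase, and Calm3, a calmodulin gene, was lower by -0.36 ± 0.07 (edgeR adjusted p = 0.00261). Prkaca, the catalytic subunit of protein kinase A that phosphorylates phosphorylase kinase, was lower by -0.26 ± 0.07 (edgeR adjusted p = 0.0145). Akt1 was at -0.22 ± 0.07 (edgeR adjusted p = 0.0322), which was lost without fed PC 1 (0.0739) or 2 (0.0677), fed PP 2 (0.0709), fasted PC 1 (0.0542) or 3 (0.0676), or fasted PP 2 (0.05). In the averaged zone comparison, beside 13% of all genes, 1 of the 13 was called, Prkar1a, a regulatory subunit of protein kinase A, which was lower in PC (-0.22 ± 0.07, edgeR adjusted p = 0.0452). This call held without fed PP 3 or fasted PP 2 and was lost without each of the other 10 libraries (0.0765 to 0.117).

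**Figure D4:**
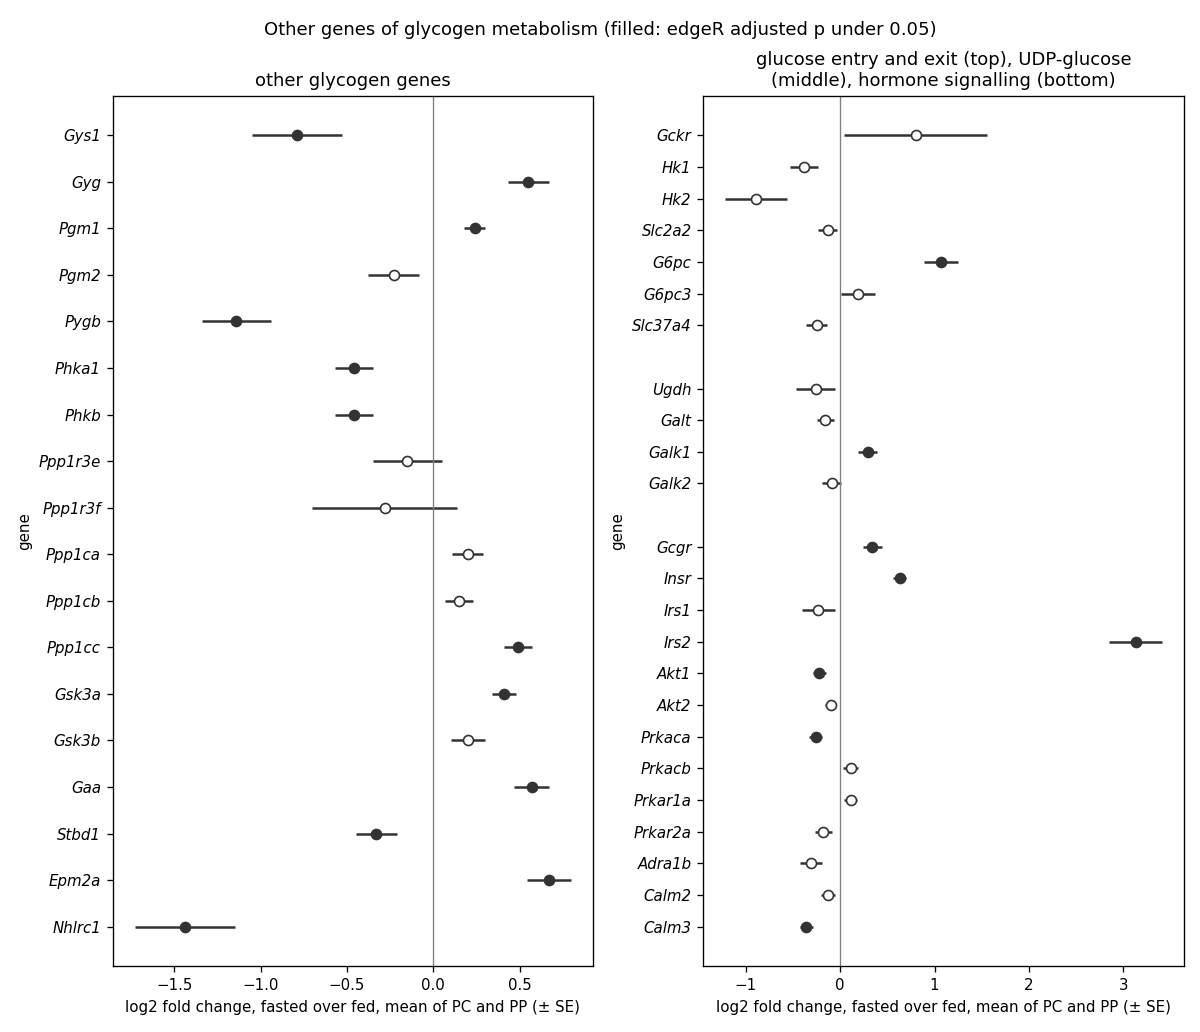
Log2 fold change, fasted over fed, averaged over both zones (x axis, with SE) of the tested genes of 4 lists around the 9 genes (rows): other glycogen genes (left), and glucose entry and exit, UDP-glucose and hormone signalling (right); filled where the edgeR adjusted p is under 0.05. Nhlrc1 (-1.44) has the lowest value and Irs2 (3.13) the highest.

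For each called gene of the 9, the genes with the most similar profile were found by the root mean square (RMS) difference of log2 CPM over the 12 libraries, each gene centred on its own mean, among 8124 genes of at least 5 CPM. Profiles of this kind share libraries and depth, and no test was made. The nearest to Pygl, whose own RMS around its mean was 0.52, were Mdn1 (0.18), Ctps (0.18) and Nsmf (0.19). Ppp1r3c, with an RMS of 1.09, was nearest to Utp14b (0.37), Lss, lanosterol synthase (0.41), and Slc25a44 (0.43). Ppp1r3b (0.68) was nearest to Zkscan8 (0.25), Tpp2 (0.30) and Samd9l (0.30).

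The profile of Ppp1r3g, with an RMS of 4.20, had no close match: its nearest genes were Nr4a1, an orphan nuclear receptor (2.50), Pck1, the gluconeogenic enzyme phosphoenolpyruvate carboxykinase (2.99), and Irs2 (3.09). Phka2 (0.33) was nearest to Enox2 (0.08), Clcn2 (0.11) and Tmem220 (0.12), and Phkg2 (0.24) to Syf2 (0.08), Ctsh (0.09) and Apoe (0.10). Gys2 (0.36) was nearest to Uox, urate oxidase (0.14), F10, a coagulation factor (0.17), and Tbkbp1 (0.17).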

How the data were processed

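The authors deposited one table of estimated counts per Ensembl gene for the 12 libraries, with no column of another sample. Per the submitters' processing notes, kallisto 0.46.0 and mm10 were used; the step from transcripts to genes is not given in the sources used here. The library kit, NEBNext Ultra per the labels' protocols, is unstranded. Between 27.9% and 32.7% of values per library were not whole (tolerance 1e-06), so estimated counts were rounded. Symbols, coordinates and exon lengths came from GENCODE M21 (GRCm38), which gave a symbol for 27566 of 28030 identifiers, and promoters from RefSeq. The hepatocyte marker Tf was not matched by symbol.

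All 12 libraries entered one edgeR 4.0.16 quasi-likelihood fit (R 4.3.3, limma 3.58.1; filterByExpr, TMM, robust, group means), which shares one spread over the 4 groups and was tested on simulated counts. DESeq2 1.42.0, other scalings, no filter, a non-robust fit, each comparison's groups alone, a replicate block and leaving out each library were alternatives. DESeq2 was run without filterByExpr, so its counts rest on another set of genes than those of edgeR. Ratios were compared by exact permutation (Python 3.11.15, SciPy 1.17.1, pandas 2.3.3), and figures drawn with matplotlib 3.10.9. The p-values rest on the variation among these libraries, which the labels call biological replicates, and part of that variation may be technical. No pair of libraries of a group agreed within counting noise (chi-square per degree of freedom 23.9 to 79.8), so each was counted as 1 replicate, and floors cover counting error only.

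The named genes are the 9 members, the called genes of 4 lists around them and, for each called member, the 3 genes of nearest profile. The members and lists were chosen with earlier results of these data known. For most list genes the averaged calls are given. Some genes of the lists are not reported here and are left out of the lists' counts.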

Additional observations from a re-analysis of the deposited data

How the results depend on the processing

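Of 1164 values of the 9 genes recomputed under the alternatives, 1082 kept their direction and call, 47 lost a call, 35 gained one and 0 reversed. List genes, an alternative added after seeing the data, were recomputed only where the main fit called them, so a call could be lost and not gained. Of their 1093 values, 219 lost a call. No fold change is given for Ppp1r3g where a group is at 0 throughout.

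Of the 9 genes, 4 were called for fasting in PC, 2 with no filter and 2 to 5 when 1 library was left out. For fasting in PP 3 were called, 1 with no filter, 1 with the groups alone and 1 to 4 without 1 library. For the zones in fasted mice 0 were called, 1 by DESeq2 and 0 to 1 without 1 library. For the zones in fed mice 0 were called, 1 with library totals alone, 2 by DESeq2 and 0 to 1 without 1 library. Over all genes, the zones of fasted mice gave 774 calls and 376 with the groups alone, those of fed mice 570 and 909 by DESeq2, and the interaction 0, 11 by DESeq2 and 1 with no filter. Without 1 library these counts ranged over 1593 to 2618 (fasting in PC), 1405 to 2414 (fasting in PP), 386 to 1005 (zones, fasted), 292 to 701 (zones, fed) and 0 to 2 (interaction). The cause was not tested. With library totals alone, calls split into 1025 higher and 1545 lower for fasting in PC (1345 and 1237 with TMM), 772 and 1523 for fasting in PP (1014 and 1148), 595 and 302 for PC over PP in fasted mice (405 and 369) and 377 and 241 in fed mice (271 and 299).

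The labels leave unsaid if a replicate number pairs a PC with a PP library, and the deviations from the group means did not settle it: of the 6 same-numbered pairs within a feeding state 3 correlated above 0.1 (-0.10 to 0.21), and of the 12 that join fasted with fed none did (-0.04 to 0.09). The replicate block over all 12 libraries joins fasted with fed libraries of a number, which are from different mice. It therefore does not stand for a pairing of zones within a mouse. With this block, 1 of the 9 genes was called between the zones of fasted mice, Pygl at -0.64 (edgeR adjusted p = 0.00487). Pygl was then also called for fasting in PP (-0.58, edgeR adjusted p = 0.00403) and between zones on average (-0.39, 0.00553), and Gbe1 for fasting on average (-0.35, 0.0118). The calls of Ppp1r3g in PC (0.0784) and PP (0.0895) and of Phka2 in PP (0.0592) were lost.

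Depth limits Ppp1r3g most, with 0 to 10 counts in the fed libraries.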
